A study of Mus musculus with 6 samples.

Results

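SR and hnRNP genes encode the RNA-binding proteins that choose splice sites, and 33 protein-coding genes of the table belong to them by name out of 28660 loci. They were taken as every protein-coding gene whose symbol starts with Srsf and a digit or with Hnrnp, together with Tra2a and Tra2b, which gave 13 SR genes and 20 hnRNP genes. The RNA came from nuclei of HL-1 cells, a single immortalised mouse line of atrial cardiomyocyte origin, grown with serum and norepinephrine and neither edited nor treated in any further way named in the labels. Nuclei released by detergent were separated into what stayed with the chromatin pellet and what came off as soluble nuclear extract. Each fraction had 3 libraries, and ERCC spike-ins (synthetic RNAs) were added to every fraction. The authors pooled the 3 libraries of a fraction into 1 FPKM value (fragments per length and library size) per locus, so each gene has 1 value per fraction and no replicate error.

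SR proteins join an RNA recognition motif to a tail rich in arginine and serine, bind exonic enhancers and mostly promote exon inclusion. The hnRNPs coat nascent transcripts and often, though not always, oppose inclusion. Many genes of both families limit their own output through alternative exons that carry a stop codon or through introns left unspliced in the nucleus.

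A fold below is the log2 of pellet over soluble FPKM after the pellet value is multiplied by 3.37, the slope of soluble on pellet FPKM over 82 spike-ins; it is called the spike-in fold. Without that factor every log2 value is lower by 1.75, which is called the FPKM-scale fold. A gene whose soluble and pellet FPKM averaged 0.5 or more was tested, and it was called higher or lower in the pellet at 2-fold or more. Spike-ins whose means lay within the range of the tested SR and hnRNP genes scattered about the common factor with an SD of 0.10 on the log2 scale (n = 18 spike-ins, from -0.22 to 0.13). This is the only error the table allows; it covers library preparation and sequencing of pooled values, and neither the cells nor the fractionation. Of 12 cardiomyocyte markers 11 were in the table and all 11 were tested, summing to 3811 soluble and 744.4 pellet FPKM. Myl7 was the highest of them, at 1118.7 soluble and 131.3 pellet FPKM. Nppa was the lowest, with a mean of 0.918 FPKM, not far above the filter of 0.5. Tested markers of other cells were 3 of 8 for fibroblasts (summing to 346.9 soluble and 88.4 pellet FPKM, nearly all Col3a1), 2 of 7 for endothelium (7.07 and 2.47 FPKM) and 1 of 6 for immune cells (0.829 and 0.788 FPKM). Their part in the results was not tested. A smaller number of cells with a transcript and less of it per cell cannot be told apart in such extracts.

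The SR and hnRNP messages were abundant in both fractions and spread over a wide range of pellet to soluble ratios, from Srsf10 at 6.13-fold more pellet signal to Hnrnpab at 2.36-fold more soluble signal on the spike-in scale. Of 33 genes, 32 were tested: 7 were higher in the pellet (Srsf10, Srsf11, Hnrnph3, Hnrnpu, Hnrnpdl, Tra2b and Srsf5), 1 was lower (Hnrnpab) and 24 lay within 2-fold. Among 11397 tested protein-coding genes 24.0% were higher and 10.6% lower (31.9% and 10.5% of all 13917 tested loci), so the share of SR and hnRNP genes called higher lay near the background. Their median spike-in fold was 0.50, against 0.26 for all tested protein-coding genes and 0.12 for those of at least 5 FPKM, of which 19.5% were higher and 13.0% lower. Without a filter on level the order turned, with medians of 0.51 for the 33 genes and 0.55 for 17913 protein-coding genes. On the FPKM scale the count was 0 higher against 19 lower and the median -1.26, against 2.25% higher, 68.2% lower and a median of -1.49 for tested protein-coding genes. Srsf12 alone was not tested, at 0.00044 soluble and 0.00019 pellet FPKM.

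**Figure D1:**
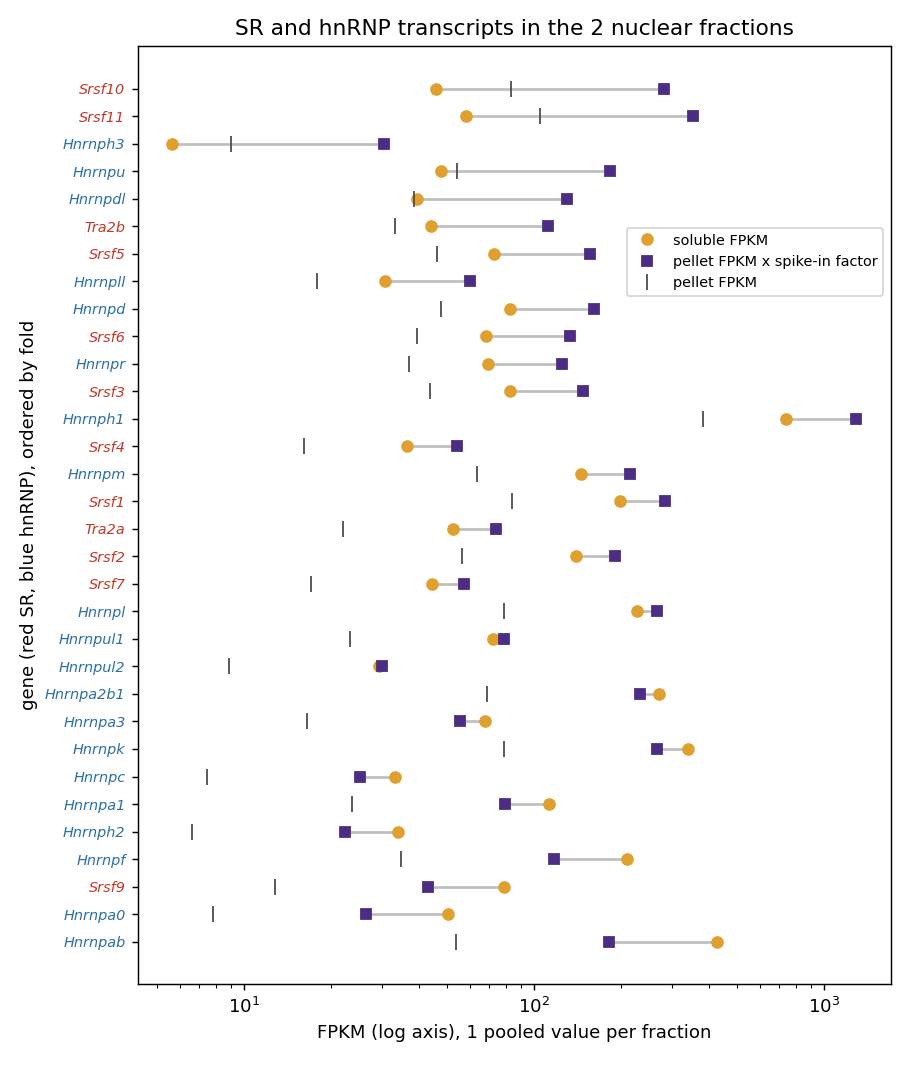
FPKM of the 32 tested SR (red names) and hnRNP (blue names) genes on a log axis, 1 pooled value per fraction, ordered by fold. Circles are soluble FPKM, squares pellet FPKM times the spike-in factor and ticks pellet FPKM as deposited; only Srsf10, Srsf11, Hnrnph3 and Hnrnpu have a tick to the right of the circle.

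The level of these genes lay well above that of the typical message in either fraction. Their soluble values ran from 5.66 to 737.1 FPKM with a median of 69.0, against a median of 12.9 for tested protein-coding genes. In the pellet they ran from 6.62 to 383.1 FPKM with a median of 37.8, against 4.88. The 33 genes together held 1.03% of the soluble FPKM of all protein-coding genes and 1.56% of the pellet FPKM. For the SR genes these shares were 0.24% and 0.537%, and for the hnRNP genes 0.786% and 1.02%.

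The SR genes had a higher median fold than the hnRNP genes. All but Srsf9 of the 12 tested SR genes had a spike-in fold above the median of protein-coding genes, as had 8 of 20 hnRNP genes. SR genes had a median spike-in fold of 0.71, with 4 higher in the pellet and 0 lower, and hnRNP genes had 0.080, with 3 higher and 1 lower. The difference between these medians was 0.63 and is the same on the FPKM scale, where they were -1.05 and -1.67. With 1 value per fraction this difference has no test. Without the 12 genes whose coordinates another locus shares it was 1.12, with medians of 1.03 and -0.088.

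Srsf10 and Srsf11 stood furthest toward the pellet. Srsf10 (chromosome 4, 135855747 to 135869908 in mm10), whose product acts as a splicing repressor when dephosphorylated, had 45.9 soluble and 83.4 pellet FPKM, a spike-in fold of 2.62. Srsf11 (chromosome 3, 158010473 to 158036639), an SR family member first known as p54, had 58.2 and 104.7 FPKM, a spike-in fold of 2.60. Both had more FPKM in the pellet than in the soluble fraction even without the factor, at 0.86 and 0.85 on the FPKM scale, and no other locus shares their coordinates. The gap between these 2 genes is smaller than the spike-in scatter. Of tested protein-coding genes, 2.55% had a higher fold than Srsf10.

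Tra2b and Srsf5 were the other SR genes past 2-fold. Tra2b, encoding a sequence-specific activator with arginine-serine stretches at both ends, had 44.0 soluble and 33.2 pellet FPKM, a spike-in fold of 1.35. Tra2a, its paralogue, had 52.7 and 21.9 FPKM and a spike-in fold of 0.49, so the pair differed by 0.86. Srsf5 had 73.1 soluble and 46.4 pellet FPKM, a spike-in fold of 1.1, which is within the spike-in SD of the threshold. The folds of Tra2b and Srsf5 turn to -0.41 and -0.66 on the FPKM scale.

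Srsf4, Srsf5 and Srsf6, 3 closely related SR genes with a pair of RNA recognition motifs, came in different positions. Srsf6 had 68.5 soluble and 39.5 pellet FPKM (spike-in fold 0.96), just under the threshold, and Srsf4 had 36.4 and 16.1 FPKM (0.58). Srsf5 and Srsf6 differed by 0.14, close to the spike-in SD, and Srsf5 and Srsf4 by 0.52.

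Srsf1, Srsf2, Srsf3 and Srsf7 lay within 2-fold. Srsf1, encoding the SR protein also called ASF/SF2, had 198.4 soluble and 83.7 pellet FPKM, a spike-in fold of 0.51. Srsf2, known as SC35 and as the marker of nuclear speckles, had 139.4 and 56.4 FPKM, a spike-in fold of 0.45. Srsf3, whose product is also an adaptor for messenger RNA export, had 82.7 and 43.8 FPKM and a spike-in fold of 0.84. Srsf7, its relative with a zinc knuckle, had 44.6 and 17.0 FPKM and a spike-in fold of 0.36. Each of these 4 was higher in the soluble fraction by FPKM alone, with FPKM-scale folds from -1.39 to -0.92.

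Srsf9 was the single SR gene on the soluble side on the spike-in scale. It had 79.1 soluble and 12.8 pellet FPKM, a spike-in fold of -0.87, which is lower than that of Srsf1, a relative with the same domain plan, by 1.38. Of tested protein-coding genes, 86.7% had a higher fold than Srsf9.

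**Figure D2:**
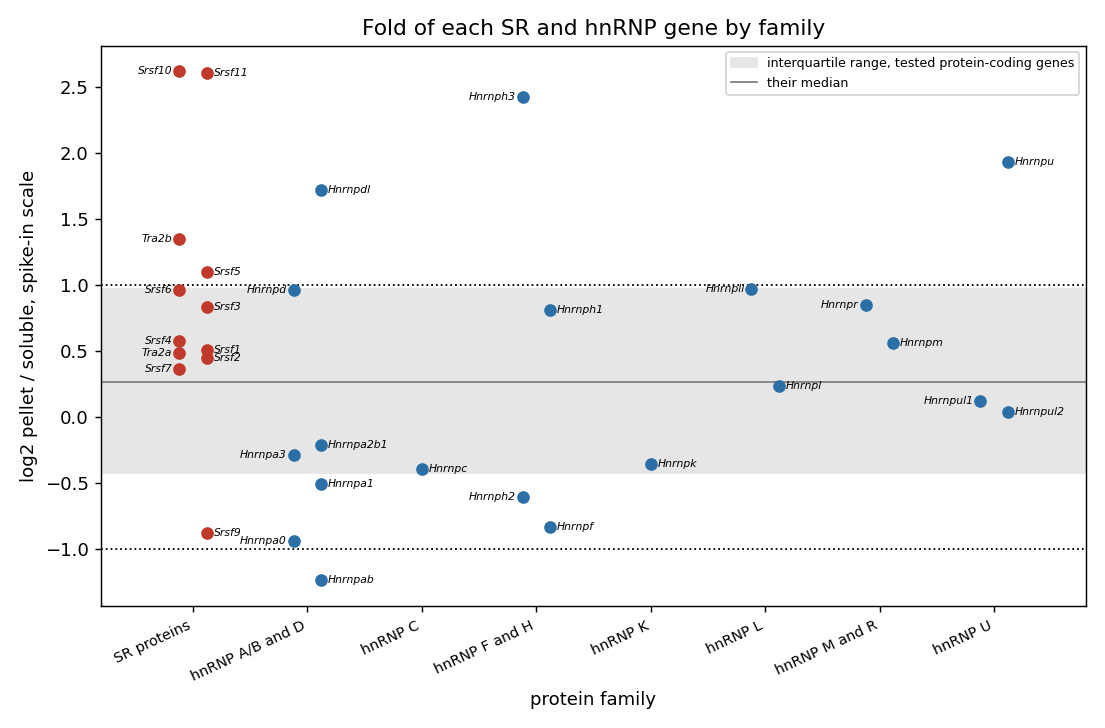
Spike-in log2 fold of the 32 tested genes by family (red SR, blue hnRNP), with the median and interquartile range of tested protein-coding genes as line and band and dotted lines at 2-fold. The SR genes sit above the line except Srsf9 at -0.87, while the A/B genes of the hnRNPs sit below 0.

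Messages of the A/B type hnRNPs lay toward the soluble extract on the spike-in scale, and so by construction on the FPKM scale too. The A/B proteins hold a tandem pair of RNA recognition motifs and a glycine-rich tail. Hnrnpab (chromosome 11, 51584757 to 51606847) had 428.2 soluble and 53.9 pellet FPKM, a spike-in fold of -1.24, and was the 1 gene called lower. Hnrnpa0 had 50.6 and 7.84 FPKM (-0.93). For Hnrnpa1, whose product is the best known antagonist of Srsf1, the values were 113.0 and 23.6 FPKM (-0.50). Hnrnpa3 had 67.9 and 16.5 FPKM (-0.29) and Hnrnpa2b1, encoding a reader of sorting signals in RNA, had 269.3 and 68.8 FPKM (-0.21). All 5 were thus below 0 on the spike-in scale, where 40.1% of tested protein-coding genes were. Short genes lay lower, with a median of -0.44 and a lower quartile of -1.06 for tested protein-coding genes spanning under 10000 bp in RefSeq. Of the A/B genes that short, Hnrnpab lay below that quartile, Hnrnpa0 and Hnrnpa1 between it and the median, and Hnrnpa2b1 above the median. Hnrnpa3, spanning 10303 bp, lay below the 0.028 median of the next span class. A difference of A/B genes from genes of like span was not tested. Hnrnpa1 has processed copies in the genome; the 1 such copy of the table named after it, Gm5803, had 0.234 soluble and 0.042 pellet FPKM.

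The D type genes, which encode relatives of the A/B proteins that bind AU-rich elements, lay on the other side of 0. Hnrnpd, encoding AUF1, had 82.8 soluble and 47.9 pellet FPKM, a spike-in fold of 0.96 and so just under the threshold. Hnrnpdl (chromosome 5, 100033577 to 100039664) had 39.4 and 38.5 FPKM, a spike-in fold of 1.72. The 2 paralogues differed by 0.76. Without the factor the fractions held nearly equal FPKM of Hnrnpdl, with a fold of -0.032.

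The F and H genes, encoding hnRNPs that bind runs of G, covered the widest range of the hnRNP families. Hnrnph1 was the most abundant of all SR and hnRNP genes, with 737.1 soluble and 383.1 pellet FPKM and a spike-in fold of 0.81. Its pellet FPKM was the highest of the 11397 tested protein-coding genes, ahead of the splicing factor gene Rbm39 at 382.8 by less than the spike-in scatter. In the soluble fraction it ranked 34. It made up 18.6% of the soluble and 23.7% of the pellet FPKM of the 33 genes. Hnrnph2 had 34.0 and 6.62 FPKM (spike-in fold -0.61), and Hnrnpf, the nearest relative outside the H group, had 209.0 and 34.8 FPKM (-0.83).

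Hnrnph3 (chromosome 10) had the lowest mean of soluble and pellet FPKM of the tested genes and the third highest fold. It had 5.66 soluble and 9.02 pellet FPKM, a spike-in fold of 2.43 and an FPKM-scale fold of 0.67. It exceeded Hnrnph1 by 1.62 and Hnrnpf by 3.26 on the log2 scale. In the table its coordinates, 62980223 to 63024217, also hold Rufy2, a vesicle traffic gene with 4.84 and 6.15 FPKM and a spike-in fold of 2.10. The sources used here do not give the rule by which fragments went to either gene.

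Hnrnpu, encoding scaffold attachment factor A, which binds both RNA and chromatin, had 47.8 soluble and 54.1 pellet FPKM, a spike-in fold of 1.93. It shares its coordinates (chromosome 1, 178319130 to 178337797) with 3 loci that differ from it. The antisense locus Gm16586 had 5.0 and 23.3 FPKM (spike-in fold 3.97), and Cox20 had 37.1 and 8.39 FPKM (-0.39). Gm28062, typed as protein-coding, had 370.3 and 75.1 FPKM (-0.55), more than Hnrnpu in either fraction. The summed FPKM of Hnrnpu and Gm28062 gave a spike-in fold of 0.059, so the position of Hnrnpu depends on how fragments were shared between them. Hnrnpul1 and Hnrnpul2, its relatives, were near balance, with 72.2 and 23.3 FPKM (0.12) and 29.2 and 8.90 FPKM (0.039).

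The remaining hnRNP genes lay within 2-fold. Hnrnpl, a binder of CA repeats, had 226.4 soluble and 78.9 pellet FPKM (spike-in fold 0.23). Its paralogue Hnrnpll, known for switching exons of the Ptprc message in lymphocytes, had 30.7 and 17.8 FPKM (0.97). Hnrnpr had 69.6 and 37.0 FPKM (0.84), and Hnrnpm had 145.0 and 63.4 FPKM (0.56). Hnrnpk, encoding a poly(C) binder with KH domains, was among the most abundant at 338.7 and 78.6 FPKM (-0.35). Hnrnpc, whose product packages long nascent RNA and binds runs of U, had 33.1 and 7.46 FPKM (-0.40).

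Of the 32 tested genes, 4 had more pellet than soluble FPKM without the factor, beside 8.86% of tested protein-coding genes. These were Srsf10, Srsf11, Hnrnph3 and Hnrnpu. Any such gene is called higher by construction, since the factor adds 1.75 to its log2 fold. Hnrnpll, Hnrnpd and Srsf6, at 0.96 to 0.97, missed the call by less than the spike-in SD. Hnrnpa0, at -0.93, missed the lower call by less than that SD too. With the median ratio of the spike-ins as the factor, 10 genes were higher instead of 7 and hnRNP genes accounted for 5 of them instead of 3, while 25.7% of tested protein-coding genes were higher with that factor.

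Coordinates were shared with at least 1 other locus by 12 of the 33 genes, against 40.5% of tested protein-coding genes. These held 19 further loci, of which 14 were tested. Among tested noncoding loci there, a TEC locus (unconfirmed transcript) at Srsf4, RP23-13A13.6, had 1.13 soluble and 5.33 pellet FPKM and a spike-in fold of 3.99, against 0.58 for Srsf4. The antisense locus Gm17092 at Hnrnpd had 1.78 and 0.599 FPKM (0.19), and Gm11508 at Srsf1 had 0.944 and 0.358 FPKM (0.36), both lower than the host. The long intergenic RNA 2010015M23Rik, also at Srsf1, had 1.46 and 0.81 FPKM and a spike-in fold of 0.91, higher than the 0.51 of Srsf1. Phykpl, at the coordinates of Hnrnpab, had 3.31 and 4.76 FPKM and a spike-in fold of 2.28, the opposite side from Hnrnpab. Rmi1 at Hnrnpk (0.934 and 0.72 FPKM, spike-in fold 1.38) also lay opposite, Hnrnpk being at -0.35. So did the gene listed as 2-Mar at Hnrnpm (35.3 and 9.40 FPKM, -0.16), Hnrnpm being at 0.56. At Srsf2, Mfsd11, Jmjd6 and Mettl23 had spike-in folds of 0.055, -0.37 and -0.065, all under the 0.45 of Srsf2.

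The SR and hnRNP genes had a shorter median span than protein-coding genes, and the SR genes under 10000 bp, 6 of the 13 tested genes that short, lay mostly above the upper quartile of protein-coding genes of like span. The tested genes spanned 2678 to 39226 bp in RefSeq with a median of 11742 bp, against 24344 bp for 10726 tested protein-coding genes with a span. Across all these protein-coding genes fold and span went together (Spearman's rho 0.44, genes not being independent), and rho was 0.23 across the 32 tested SR and hnRNP genes. Within each family rho was higher, at 0.37 for the 12 tested SR genes and 0.33 for the 20 hnRNP genes. Protein-coding genes under 10000 bp had a median spike-in fold of -0.44 and an upper quartile of 0.26. Of the 6 SR genes that short, 5 (Srsf1, Srsf2, Srsf5, Srsf6 and Srsf7) lay above this quartile, and their median with Srsf9 included was 0.48. Of the 7 hnRNP genes that short, 2 (Hnrnpdl and Hnrnph3) lay above it, and their median was -0.50. The genes called higher had a median span of 14157 bp, the other tested ones 11272 bp.

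**Figure D3:**
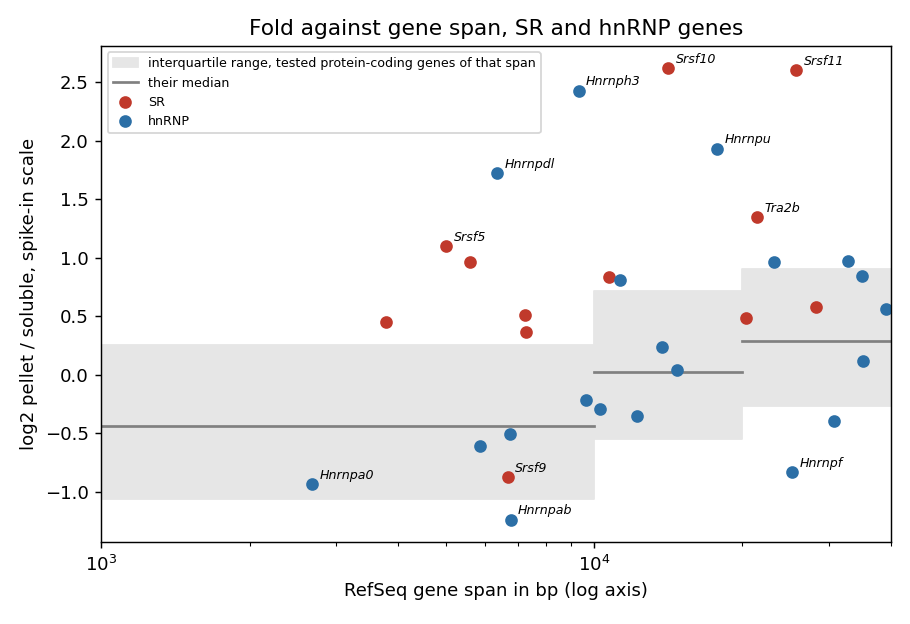
Spike-in log2 fold against RefSeq gene span on a log axis for the 32 tested genes (red SR, blue hnRNP); bands and lines give the interquartile range and median of tested protein-coding genes in 3 span classes. Most red points under 10000 bp lie above the band, whose upper edge is at 0.26.

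Start site windows were compared as a feature that was not used to choose the genes. RefSeq (GRCm38.p6, equivalent to mm10) gave windows for 31 of the 33 genes. The 250 bases before each start were searched on both strands for the GC box GGGCGG, the CCAAT box CCAAT, the ETS motif CCGGAAG and the TATA box TATAAA, none of which contains another. The 4 windows chosen for print are those of the genes with the highest and the lowest fold of each family among the 9 genes with a window clear of the RefSeq span of the gene. They are written 5′ to 3′ along the gene with motif matches in capitals.
Tra2b, chr16:22266006-22266255, minus strand: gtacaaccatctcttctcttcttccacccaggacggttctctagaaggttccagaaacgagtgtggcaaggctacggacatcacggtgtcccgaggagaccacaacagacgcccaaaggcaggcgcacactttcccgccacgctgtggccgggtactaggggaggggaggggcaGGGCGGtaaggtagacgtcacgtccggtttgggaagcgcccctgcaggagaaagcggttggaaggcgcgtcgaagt
Srsf3, chr17:29032410-29032659, plus strand: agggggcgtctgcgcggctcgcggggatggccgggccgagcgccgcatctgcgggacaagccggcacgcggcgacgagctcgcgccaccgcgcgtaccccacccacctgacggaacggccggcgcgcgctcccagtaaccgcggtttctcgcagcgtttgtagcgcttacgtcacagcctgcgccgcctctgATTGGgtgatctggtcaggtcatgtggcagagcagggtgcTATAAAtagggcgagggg
Hnrnpr, chr4:136310692-136310941, plus strand: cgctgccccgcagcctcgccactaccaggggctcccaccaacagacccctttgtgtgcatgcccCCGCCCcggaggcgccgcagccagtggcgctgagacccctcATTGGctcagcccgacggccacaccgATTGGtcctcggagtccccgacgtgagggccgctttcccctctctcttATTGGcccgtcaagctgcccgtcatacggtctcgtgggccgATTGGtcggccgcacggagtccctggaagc
Hnrnpab, chr11:51606882-51607131, minus strand: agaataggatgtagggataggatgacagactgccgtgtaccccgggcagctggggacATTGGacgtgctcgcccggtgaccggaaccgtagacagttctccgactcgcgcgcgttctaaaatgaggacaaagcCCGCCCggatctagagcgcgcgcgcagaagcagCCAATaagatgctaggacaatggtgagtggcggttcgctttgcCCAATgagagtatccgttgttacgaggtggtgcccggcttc
Counting the reverse complement ATTGG, the CCAAT box matches 4 times in Hnrnpr, 3 times in Hnrnpab, once in Srsf3 and not at all in Tra2b. Hnrnpr and Srsf3, with 4 and 1 matches, had the same spike-in fold of 0.84.

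Among the SR and hnRNP genes a CCAAT match was commoner toward the soluble side, a pattern noticed after the values were seen. Of 10 tested genes with a spike-in fold below 0 and a window, 9 had a match, and Srsf9 was the exception. Among the 20 at 0 or above 8 had one, and of the 7 called higher only Srsf10 did. Within hnRNP genes the counts were 9 of 9 below 0 and 4 of 9 above, and 4 of 12 tested SR genes had a match. Over all tested protein-coding genes with a window, the share with a match was 42.1% below 0 and 41.2% at 0 or above. In all 32851 windows of this length, 33.8% held CCAAT, 32.7% the GC box, 6.91% the ETS motif and 12.4% the TATA box. Of the 30 tested SR and hnRNP genes with a window, 25 held the GC box, 6 the ETS motif and 3 the TATA box. The shares of tested protein-coding genes were 66.5%, 16.5% and 7.38%. A match is a string of letters and no evidence of binding.

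Other genes of splicing, and genes of nonsense-mediated decay, were placed beside these by lists. The counts of each list are to be read against the 24.0% higher and 10.6% lower of tested protein-coding genes (2.25% and 68.2% on the FPKM scale). Genes for proteins that phosphorylate or partner SR proteins had higher medians than the SR genes at 0.71, a difference with no test. Kinases and a phosphatase of SR proteins had 7 of 9 tested genes higher and 1 lower, with a median spike-in fold of 1.40 (-0.35 on the FPKM scale, 2 higher and 2 lower). Clk4 and Clk1, kinases of SR proteins, were highest at 3.05 and 3.03, and Clk3 (0.48) and the phosphatase gene Ppp1ca (-1.30) lowest. SR-related proteins and partners of SR proteins counted 20 of 27 higher and 1 lower, their median being 1.40 (-0.36 on the FPKM scale, 2 higher and 7 lower). Rsrp1 (3.03) and Pnisr (2.96) led, and Rnps1 (-0.12) and Sap18 (-1.19), both of the exon junction complex periphery, were lowest.

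The hnRNPs named without the prefix resembled the prefixed hnRNP genes in range, with 3 of 18 higher, 1 lower and a median spike-in fold of 0.21 (-1.55 on the FPKM scale, 0 higher and 13 lower). Ptbp2, the neural relative of the polypyrimidine tract binder, had 1.78 and Taf15 had 1.73, while Raly had -0.66 and Pcbp1, like Hnrnpk a poly(C) binder, had -1.32. A further list mixed regulators known from heart and other tissues with more general splicing factors, such as Rbm39 and Rbm25. Its genes had 9 of 18 tested higher and 0 lower, with a median of 1.0 (-0.75 on the FPKM scale, 1 higher and 8 lower). Rbm39 (2.94), encoding a relative of U2AF with an arginine-serine stretch, and Rbm25 (2.71) led them, and Rbm10 (0.11) and Khdrbs3 (-0.30) were lowest. Of the 25 genes listed, 22 were found. The 9 within 2-fold included Rbm24 (0.48), Rbm38 (0.11), Mbnl2 (0.27), Mbnl3 (0.17) and Qk (0.87), and the 9 called higher included Rbfox2 (1.14). Heart regulators were not tested as a separate group.

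Messages of the snRNP core proteins lay toward the soluble side. Proteins of the U1 and U2 particles and the Sm ring had 0 of 12 tested genes higher and 6 lower, with a median spike-in fold of -1.1 (-2.85 on the FPKM scale, where all 12 were lower). Snrnp70 of the U1 particle had -0.37, Snrpb2 of the U2 particle -0.43, and the Sm genes Snrpd2 and Snrpg had -1.70 and -1.72. Factors that recognise the branch point and the splice acceptor, such as the U2AF and SF3 proteins, counted 3 of 19 higher and 2 lower, their median being -0.13 (-1.89 on the FPKM scale, 0 higher and 16 lower). Zrsr2 (1.16) and Sf1 (1.13) were highest and Sf3b6 (-1.01) and Sf3b5 (-1.59) lowest. Genes of nonsense-mediated decay, the pathway that removes messages with early stop codons, counted 4 of 15 higher and 2 lower, their median being 0.32 (-1.43 on the FPKM scale, 0 higher and 9 lower). These counts, like those of the hnRNPs without the prefix and of the U2AF and SF3 list, lay near the background. Smg1 (1.79) was highest and Rbm8a (-1.17) and Magoh (-1.39) lowest.

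**Figure D4:**
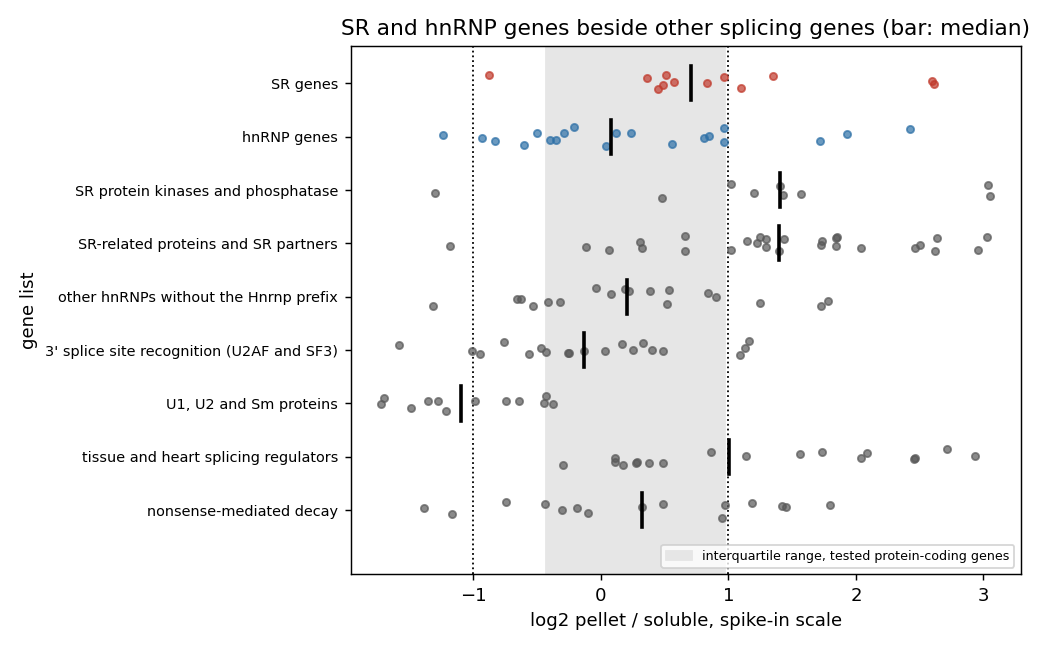
Spike-in log2 fold of tested SR and hnRNP genes (red and blue) and of 7 lists of other splicing or decay genes (grey), 1 point per gene. Bars give medians, the band the interquartile range of tested protein-coding genes, and dotted lines mark 2-fold. The SR median is 0.71 and the hnRNP median 0.080, between the SR kinases at 1.40 and the snRNP protein genes (U1, U2 and Sm) at -1.1.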

How the data were processed

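The SR and hnRNP genes, the gene lists and the tests were chosen with earlier results of these data known. Per the file headers, the authors deposited 1 FPKM value per locus and fraction, so the 3 libraries of a fraction stand pooled and their depth is unknown. The same deposited table holds a rescaled pellet signal, the total signal, their ratio as enrichment, and log10 of the total and of the ratio. Per the submitters' processing notes, which give no versions, the build was mm10 and the tools included HISAT2, SAMtools, Cufflinks, bedtools and Cuffdiff. Of 30687 lines 1945 repeated an identifier and were dropped, and 1 was added to starts, which count from 0. Folds were recomputed from the FPKM columns with the least-squares spike-in factor, no pseudocount being needed as 0 values were listed at 0. The deposited enrichment of the 33 genes differed from these folds by at most 1.6e-09 on the log2 scale. No p-value was computed, since no value per library was used here. Further tissue regulators were named after the values were seen. Otherwise all 33 genes were named and, from each list, the 2 tested genes with the highest and the 2 with the lowest fold. One gene that this rule names is not reported here. Gene spans, symbols and start windows came from RefSeq on GRCm38.p6. Protein sequences were not used here. Functions were tested on simulated data. Python 3.11.15, pandas 2.3.3, numpy 2.4.6 and scipy 1.17.1 were used.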

Additional observations from a re-analysis of the deposited data

How the results depend on the processing

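No paired analysis was possible because each fraction has 1 pooled value, and leaving out replicates was not run for the same reason. On the FPKM scale, which takes 1.75 from every log2 fold, 0 SR and hnRNP genes were higher in the pellet (0 SR, 0 hnRNP) and 19 lower, and the medians turned to -1.26 for all, -1.05 for SR and -1.67 for hnRNP genes. The number of tested genes above 0 went from 22 to 4, and among those called on the spike-in scale Hnrnpdl (-0.032), Srsf5 (-0.66) and Tra2b (-0.41) changed sign. List medians became -0.35 (kinases and phosphatase), -0.36 (SR-related), -1.55 (unprefixed hnRNPs), -1.89 (U2AF and SF3), -2.85 (U1, U2 and Sm proteins), -0.75 (tissue and general regulators) and -1.43 (decay). With the median spike-in factor 5 hnRNP genes were higher. A call at 1.5-fold gave 13 higher and 5 lower genes, 7 of the higher being hnRNP genes, beside 37.5% higher and 20.2% lower protein-coding genes. At 3-fold 5 genes were higher (2 SR, 3 hnRNP) and 0 lower, beside 11.2% higher and 2.68% lower protein-coding genes. With a filter of 5 FPKM the median of SR and hnRNP genes exceeded that of protein-coding genes by 0.37 instead of 0.23. Without a filter the difference was -0.041, the SR median 0.58 and the gap between SR and hnRNP medians 0.50. Without genes that share coordinates, 20 tested genes were left (8 SR, 12 hnRNP). Of these 5 were higher (4 SR, 1 hnRNP) and 0 lower (Hnrnpab being left out). Beside them 21.5% of 6781 protein-coding genes were higher and 12.1% lower. The SR median was then 1.03, the hnRNP median -0.088, their gap 1.12 and the excess over protein-coding genes 0.40. Leaving out Hnrnpu and Hnrnph3, chosen after seeing the data, left 1 hnRNP gene higher and a median of -0.088. A filter of 1 FPKM and a pseudocount of 0.1 changed no count and no direction of the results for SR and hnRNP genes; for the lists the pseudocount was not run.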
